A study of Mus musculus with 4 samples.

Results

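Eosinophils, basophils and mast cells are defined by what they store. Of 10 genes known for these lineages, *Epx*, *Prg2*, *Ear1*, *Ear2*, *Cpa3*, *Gzmb*, *Mcpt8*, *Ms4a2*, *Hdc* and *Cyp11a1*, 9 were measured here among 12067 genes, and *Gzmb*, which encodes granzyme B, was not analysed here. The 10 genes were chosen by lineage, but with the fold changes of these same libraries already known. Their values are therefore given as a description and not as a test.

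Eosinophils and basophils arise in the bone marrow from myeloid progenitors and pass through precursors that already fill their granules, while mast cells mature in tissues. Eosinophil granules hold cationic proteins, a peroxidase and ribonucleases. Basophils and mast cells carry the high-affinity IgE receptor, store histamine and proteases, and release them when bound IgE is crosslinked.

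The libraries were of donor-derived (CD45.2+) KL cells, a myeloid progenitor fraction gated as Lin-cKIT+Sca-1-, and were sorted from bone marrow 20 weeks after transplant of whole bone marrow. The recipients were sublethally irradiated (5.5 Gy) female *Ptprca* (CD45.1) C57BL/6 mice. There were 2 libraries of BcorΔE9-10 origin, from scl-Cre-ERT+ *Bcor*fl/y donors, and 2 of BcorWT origin, from *Bcor*fl/y donors without Cre. The floxed allele and tamoxifen (5 mg over 5 days, at 3 to 6 months of age) were common to both groups. Cre was driven by an enhancer of *Tal1* (Scl) that is active in haematopoietic stem cells, so the deletion of exons 9 and 10 in the progenitors was inherited. The deleted allele still makes a truncated protein at a low level.

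Transcripts were counted near their 3′ ends by Quant-seq, with totals of 3825289.5 to 6253100.5 counts per library. Levels are CPM, counts relative to the library total, adjusted by the trimmed mean of M values (TMM), and 3 counts corresponded to 0.489 to 0.876 CPM. The 2 BcorWT libraries resembled each other less (r = 0.893 across genes) than the BcorΔE9-10 libraries (r = 0.947), and less than any pair of libraries taken across the genotypes (r = 0.901 to 0.940). BcorWT replicate 2 also stood apart in the noncoding transcript *Gm42418*, which took 1.43% of its counts and 14.3% to 27.9% of the others. The labels number the replicates without saying that they came from separate recipients, so an error covers only the spread between these libraries, which may be technical. Of the genes used in the sort, *Kit* was present at 29.4 to 61.9 CPM, and *Ly6a* (Sca-1) had 0 to 20 counts. Transcripts of lineage antigens were present too, *Itgam* (CD11b) at 73.7 to 159 CPM and *Ly6g* (Gr-1) at 39.6 to 174 CPM. In bulk libraries fewer cells of a type and less RNA per cell cannot be told apart.

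The eosinophil ribonuclease genes *Ear1* and *Ear2* are shown first, because their sequences bear on how far their counts can be separated. The bases before the start sites below are from RefSeq on GRCm38.p6, 5′ to 3′ on the strand of the gene, and end at the base before the start. *Ear1* is read from the minus strand (chr14:43819640-43819789) and *Ear2* from the plus strand (chr14:44102504-44102653). The RefSeq start used for *Ear1* lies inside the longer span that GENCODE gives the gene (chr14:43818765-43875517). Capitals mark the C/EBP motif TTGCNNAA.
Ear1: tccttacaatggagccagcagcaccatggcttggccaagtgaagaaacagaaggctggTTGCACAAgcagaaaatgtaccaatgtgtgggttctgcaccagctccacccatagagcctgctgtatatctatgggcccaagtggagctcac
Ear2: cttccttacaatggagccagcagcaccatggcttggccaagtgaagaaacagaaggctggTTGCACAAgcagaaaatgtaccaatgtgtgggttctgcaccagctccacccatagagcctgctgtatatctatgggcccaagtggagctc
The promoters were near copies of each other. In windows of 300 bases around the start, 294 of 297 aligned bases were identical (99.0%), with an offset of 2 bases and an identical run of 204 bases. The motif began 92 bases before the start of *Ear1* and 90 before that of *Ear2*. Among 32544 promoter windows of 300 bases, 10.8% held it on either strand. The 9 listed genes with an entry had 10 windows, *Cyp11a1* having 2, and 3 of the 10 held it, those of *Ear1* and *Ear2* and the second of *Cyp11a1*.

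*Cpa3* and *Ms4a2* are shown because they alone of those 9 genes held the GATA motif AGATAA, in capitals below, on either strand. *Cpa3* is on the minus strand (chr3:20242182-20242331), as is *Ms4a2* (chr19:11623720-11623869), where the first match reads TTATCT because it lies on the opposite strand.
Cpa3: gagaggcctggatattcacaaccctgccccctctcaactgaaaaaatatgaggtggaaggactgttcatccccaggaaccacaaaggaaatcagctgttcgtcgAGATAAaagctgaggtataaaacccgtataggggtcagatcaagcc
Ms4a2: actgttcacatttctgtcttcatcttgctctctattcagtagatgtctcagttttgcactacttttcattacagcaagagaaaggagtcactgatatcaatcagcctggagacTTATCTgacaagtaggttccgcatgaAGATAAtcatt
The match in *Cpa3* began 46 bases before the start. Those in *Ms4a2* began 37 and 11 bases before it, and another began 224 bases before it, upstream of the stretch shown. AGATAA was held by 2 of the 10 windows and by 11.2% of all windows, and the alternative form TGATAA by none of the 10 and by 8.9% of all windows.

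*Epx* (minus strand, chr11:87875537-87875686) and *Mcpt8* (minus strand, chr14:56085198-56085347) are shown as the peroxidase and protease genes with a large difference between genotypes. Neither stretch held AGATAA or TGATAA, nor did they hold TTGCNNAA.
Epx: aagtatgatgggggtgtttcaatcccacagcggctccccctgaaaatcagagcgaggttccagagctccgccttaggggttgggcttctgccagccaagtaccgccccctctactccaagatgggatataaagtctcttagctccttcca
Mcpt8: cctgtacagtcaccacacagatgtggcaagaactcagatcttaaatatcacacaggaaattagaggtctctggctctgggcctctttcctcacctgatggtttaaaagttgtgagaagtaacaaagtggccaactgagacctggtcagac
Of 3 more motifs searched on both strands, TGTGGT (RUNX) was in 4 of the 10 windows and in 16.7% of all windows. GAGGAA (PU.1 and ETS) was in 3 of 10 and 28.1% of all, and CAGCTG (E-box) in 2 of 10 and 16.4% of all. These are matches of letters and not binding sites.

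All 4 measured eosinophil granule genes were lower in both BcorΔE9-10 libraries than in either BcorWT library, as were 17.1% of all genes. *Epx* encodes eosinophil peroxidase, which makes hypobromous acid from hydrogen peroxide (GRCm38 chr11:87864000-87875536). It had 12 and 7 counts in the BcorΔE9-10 libraries and 25 and 54 in the BcorWT libraries, or 2.22, 1.14, 7.30 and 10.2 CPM. The groups did not overlap, and neither did the 95% Poisson intervals of the nearest libraries, up to 3.87 CPM in BcorΔE9-10 and from 4.72 CPM in BcorWT, which cover counting error only. The means were 1.68 ± 0.761 and 8.73 ± 2.02 CPM (SD, n = 2), 5.20-fold higher in BcorWT, and the log2 fold change of BcorΔE9-10 against BcorWT was -2.38 (SE 0.62).

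*Prg2* encodes major basic protein, the toxic core protein of the eosinophil granule (chr2:84980461-84983632). It had 904 and 685 counts in BcorΔE9-10 and 760 and 1378 in BcorWT. Scaled, these were 167 and 112 CPM against 222 and 259 CPM. The groups did not overlap, although the raw counts did, and replicate 1 was the higher library in BcorΔE9-10 and the lower in BcorWT. The means were 139 ± 39.2 and 241 ± 26.4 CPM (SD, n = 2), and the log2 fold change was -0.79 (SE 0.34). It was -1.11 without BcorΔE9-10 replicate 1 and -0.52 without BcorΔE9-10 replicate 2. The counts of *Epx* per count of *Prg2* were 0.0133 and 0.0102 in BcorΔE9-10 and 0.0329 and 0.0392 in BcorWT, without overlap.

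*Ear1* encodes an eosinophil-associated ribonuclease of the ribonuclease A family (chr14:43818765-43875517). It had 8 and 43 counts in BcorΔE9-10, or 1.48 and 7.01 CPM, and 40 and 176 in BcorWT, or 11.7 and 33.1 CPM. In both genotypes replicate 2 was the higher library, and the groups did not overlap. The log2 fold change was -2.39 (SE 0.76). It was -3.91 without BcorΔE9-10 replicate 2 and -1.44 without BcorWT replicate 2.

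*Ear2* encodes a closely related ribonuclease (chr14:44102654-44103534). It had 24 and 80 counts in BcorΔE9-10, or 4.44 and 13.04 CPM, and 52 and 244 in BcorWT, or 15.2 and 45.9 CPM. The groups did not overlap, but BcorΔE9-10 replicate 2 and BcorWT replicate 1 lay close together, with overlapping 95% Poisson intervals of 10.3 to 16.2 and 11.3 to 19.9 CPM. The log2 fold change was -1.81 (SE 0.66), with a range from -2.79 without BcorΔE9-10 replicate 2 to -0.79 without BcorWT replicate 2.

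The counts of *Ear1* and *Ear2* are uncertain as single-gene values. Within the last 400 bases of their transcripts the aligned part was 96.0% identical. Of the 326 stretches of 75 bases, the read length, in that end of *Ear1*, 132 (40.5%) also occurred exactly in another gene. Of these, 31 were in *Ear2*, 40 in *Ear10*, 19 in the pseudogene *Ear-ps2* and 88 in the pseudogene *Ear-ps9*, some in more than 1 of them. *Ear-ps9* overlaps the span of *Ear1* on the same strand. For *Ear2* the number was 31 (9.51%), and for the other members it was 0. The sum of both genes was 32 and 123 counts in BcorΔE9-10 and 92 and 420 in BcorWT, or 5.91, 20.1, 26.9 and 79.0 CPM. The summed level did not overlap between genotypes either, but the sum does not resolve the stretches shared with *Ear10* and the pseudogenes. The genes lie 227136 bases apart with 4 coding genes between them, none of which was analysed here.

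**Figure D1:**
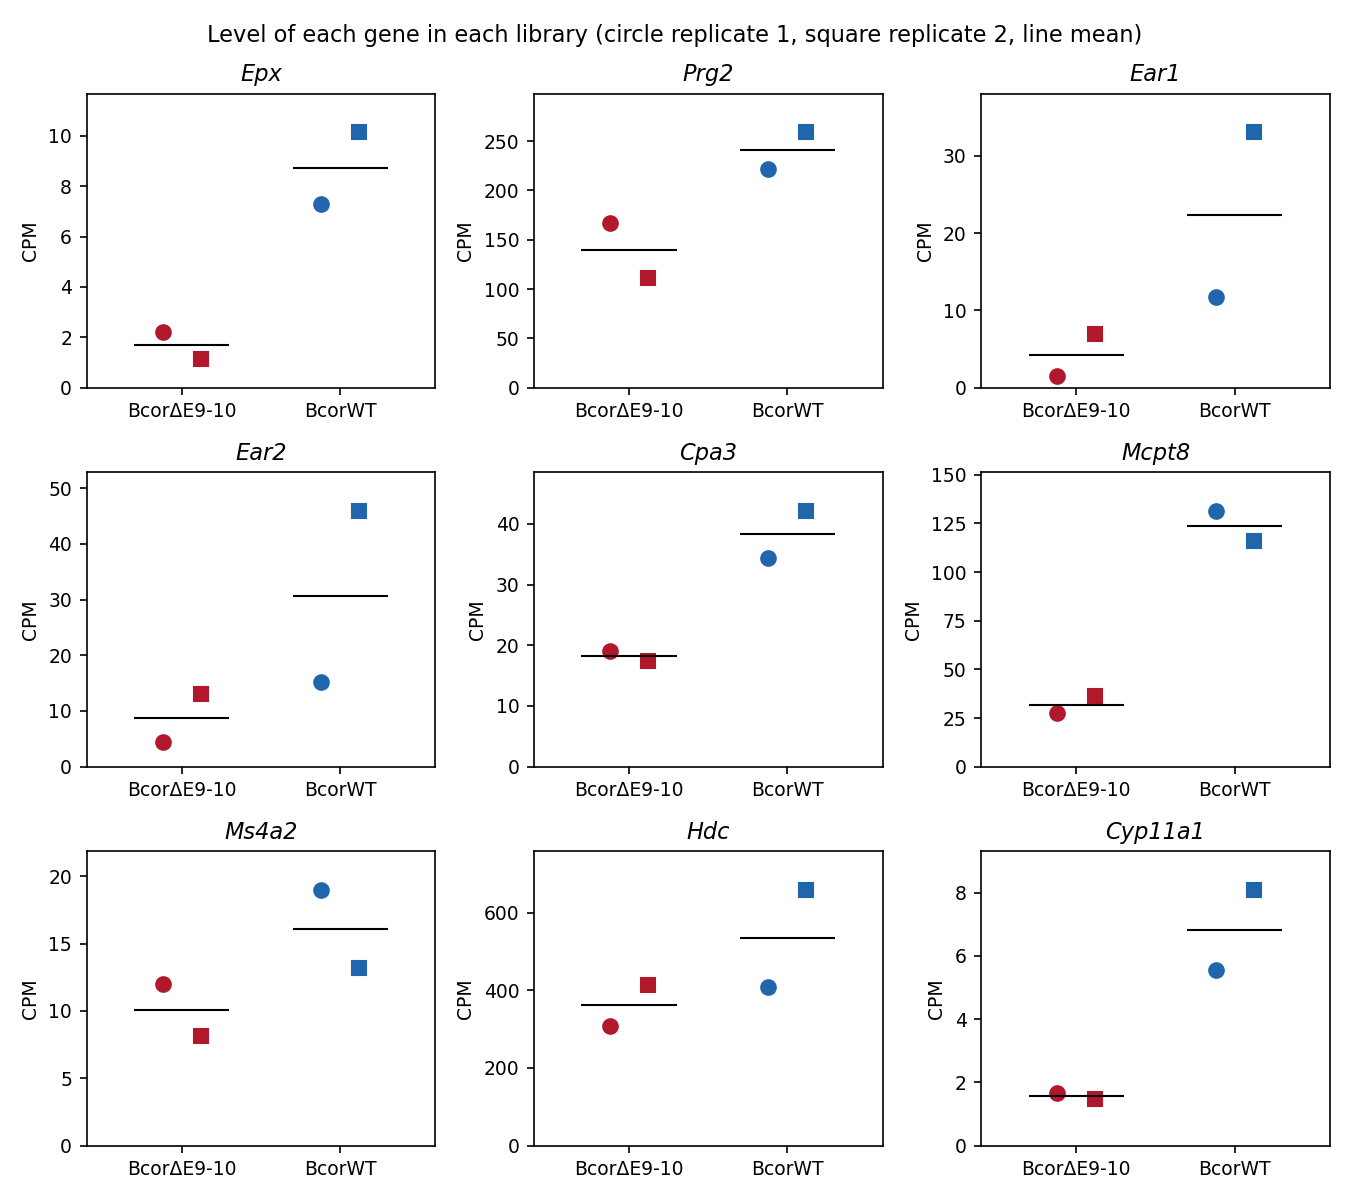
Level of each of the 9 measured genes in each library, in CPM on a linear axis that starts at 0, for BcorΔE9-10 (red) and BcorWT (blue). Circles are replicate 1, squares replicate 2 and lines the mean of both; the genotypes overlap in *Hdc*, where BcorΔE9-10 replicate 2 (414 CPM) is above BcorWT replicate 1 (409 CPM), and in no other gene.

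*Mcpt8*, *Cpa3* and *Ms4a2* are the 3 measured members known from basophils and mast cells for a protease or a receptor chain. All 3 had lower levels in both BcorΔE9-10 libraries than in either BcorWT library, as did 17.1% of all genes. *Mcpt8* encodes mast cell protease 8, a serine protease that in mice is characteristic of basophils (chr14:56082166-56085273). It had 149 and 222 counts in BcorΔE9-10 and 450 and 617 in BcorWT. Scaled, these were 27.5 and 36.2 CPM against 131 and 116 CPM. Both pairs of replicates were tight and far apart, with means of 31.9 ± 6.12 and 124 ± 10.8 CPM (SD, n = 2), 3.88-fold higher in BcorWT. The log2 fold change was -1.96 (SE 0.33) and stayed between -2.16 and -1.77 with any single library left out. It had the smallest SE relative to its size of the 9 genes.

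*Cpa3* encodes carboxypeptidase A3, a protease of the mast cell granule that basophils and their precursors also make (chr3:20215620-20242181). It had 103 and 107 counts in BcorΔE9-10, or 19.0 and 17.4 CPM, and 118 and 224 in BcorWT, or 34.5 and 42.2 CPM. The BcorΔE9-10 libraries were nearly equal, and both were well under the lower BcorWT library. The means were 18.2 ± 1.13 and 38.3 ± 5.44 CPM (SD, n = 2), and the log2 fold change was -1.07 (SE 0.32). The counts of *Mcpt8* per count of *Cpa3* were 1.45 and 2.07 in BcorΔE9-10 and 3.81 and 2.75 in BcorWT, so the basophil protease differed by more than the protease shared with mast cells in each pair of a BcorΔE9-10 and a BcorWT library.

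*Ms4a2* encodes the β chain of the high-affinity IgE receptor, which amplifies its signal (chr19:11615523-11623719). It had 65 and 50 counts in BcorΔE9-10, or 12.01 and 8.15 CPM, and 65 and 70 in BcorWT, or 19.0 and 13.2 CPM. The groups were adjacent rather than apart, since the higher BcorΔE9-10 library was just under the lower BcorWT library. The log2 fold change was -0.67 (SE 0.43), and ranged from -0.97 without BcorΔE9-10 replicate 1 to -0.39 without BcorWT replicate 1. Summed, *Cpa3*, *Mcpt8* and *Ms4a2* stood at 58.6 and 61.8 CPM in BcorΔE9-10 and at 185 and 171 CPM in BcorWT, 2.96-fold higher in BcorWT. The sum of the 4 eosinophil granule genes was 175, 133, 256 and 349 CPM in the same order, 1.96-fold higher in BcorWT. Most of each sum came from 1 gene, *Mcpt8* (3.88-fold) in the first and *Prg2* (1.73-fold) in the second. *Cpa3* and *Ms4a2* were 2.10-fold and 1.59-fold higher in BcorWT, and *Epx*, *Ear1* and *Ear2* 5.20-fold, 5.24-fold and 3.50-fold. The 2 sums therefore do not rank the 2 groups of genes.

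*Mcpt8* and *Gzmb* lie in the same cluster of serine protease genes on chromosome 14, 173564 bases apart (*Gzmb*, chr14:56258838-56262260). Of the 7 coding genes between them, *Ctsg*, the neutrophil protease cathepsin G, was the only one in the table used here. *Ctsg* had a log2 fold change of 0.17 (SE 0.32), with overlapping levels of 561 and 650 CPM in BcorΔE9-10 and 568 and 509 CPM in BcorWT.

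The remaining members are biosynthetic enzymes. *Hdc* encodes histidine decarboxylase, which makes histamine and is also expressed in other myeloid cells (chr2:126593667-126619299). It had 1673 and 2539 counts in BcorΔE9-10, or 309 and 414 CPM, and 1400 and 3499 in BcorWT, or 409 and 658 CPM. This was the only member whose groups overlapped. Its log2 fold change of -0.56 (SE 0.37) was the smallest of the 9, and ranged from -0.87 to -0.18 when a library was left out.

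*Cyp11a1* encodes the mitochondrial side-chain cleavage enzyme that turns cholesterol into pregnenolone (chr9:58006411-58027023), and mast cells and basophils are among the blood cells that express it. It had 9 and 9 counts in BcorΔE9-10, or 1.66 and 1.47 CPM, and 19 and 43 in BcorWT, or 5.55 and 8.09 CPM. The groups did not overlap, and the log2 fold change was -2.12 (SE 0.62). Every gene in the table reached 2.08 CPM before TMM scaling in at least 2 libraries. *Cyp11a1* reached that level in the BcorWT libraries alone, so it could enter the table only by being higher there, while *Epx* and *Ear1* reached it in 3 libraries and the other 6 members in all 4. Counts and medians over the members are for that reason not read as support.

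**Figure D2:**
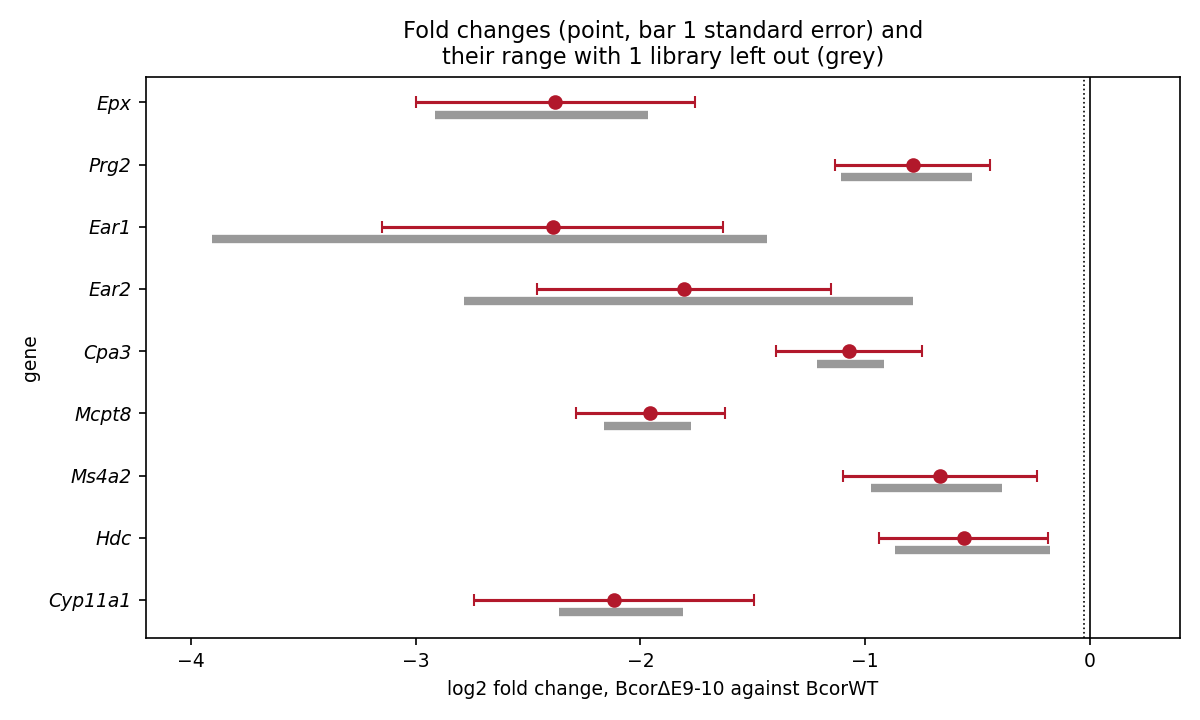
Log2 fold change of BcorΔE9-10 against BcorWT for each measured gene (point, with a bar of 1 SE) and the range of the value when each library in turn is left out (grey bar). The dotted line is the median of all genes (-0.03). Every range lies under 0, which was largely fixed in advance for the 8 genes whose groups do not overlap. The widest range is that of *Ear1* (-3.91 to -1.44), and one of the narrowest is that of *Mcpt8* (-2.16 to -1.77).

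All 9 members had a negative log2 fold change, where 52.3% of all genes did. In 8 of the 9 both BcorΔE9-10 libraries were under both BcorWT libraries, against 17.1% of all genes. A log2 fold change below -1 was found in 6 members (*Epx*, *Ear1*, *Ear2*, *Cpa3*, *Mcpt8* and *Cyp11a1*) and in 5.96% of all genes. The median of the members was -1.81 and that of all genes -0.03. Since the members were chosen with this contrast known, nothing is read from these shares.

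None of the 9 members had an adjusted p under 0.05 in edgeR's quasi-likelihood test with Benjamini-Hochberg adjustment over all genes, a threshold that 0.0166% of the genes passed. The adjusted p was 0.419 for *Mcpt8* and 0.945 for the other 8. Without adjustment, 6 of the 9 had p under 0.05 and were lower, as were 3.07% of all genes. The unadjusted values were 3.86e-04 for *Mcpt8*, 0.00527 for *Epx*, 0.00976 for *Cyp11a1*, 0.0110 for *Cpa3*, 0.0140 for *Ear1* and 0.0252 for *Ear2* in edgeR. limma-voom called none of the members after adjustment and 7 without it, as it did 4.27% of all genes without adjustment. DESeq2 called *Mcpt8* alone after adjustment (adjusted p = 7.05e-04, over a range of 7.05e-04 to 0.9995 across the alternatives tried) and 7 members without it. Over all genes DESeq2 called 0.356% after adjustment and 4.19% without it. In edgeR without BcorWT replicate 1, adjusted p under 0.05 was reached by *Mcpt8*, *Epx*, *Ear1*, *Ear2* and *Cpa3*, and by 4.94% of all genes. Without BcorWT replicate 2 it was reached by *Mcpt8* and by 0.249% of all genes.

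**Figure D3:**
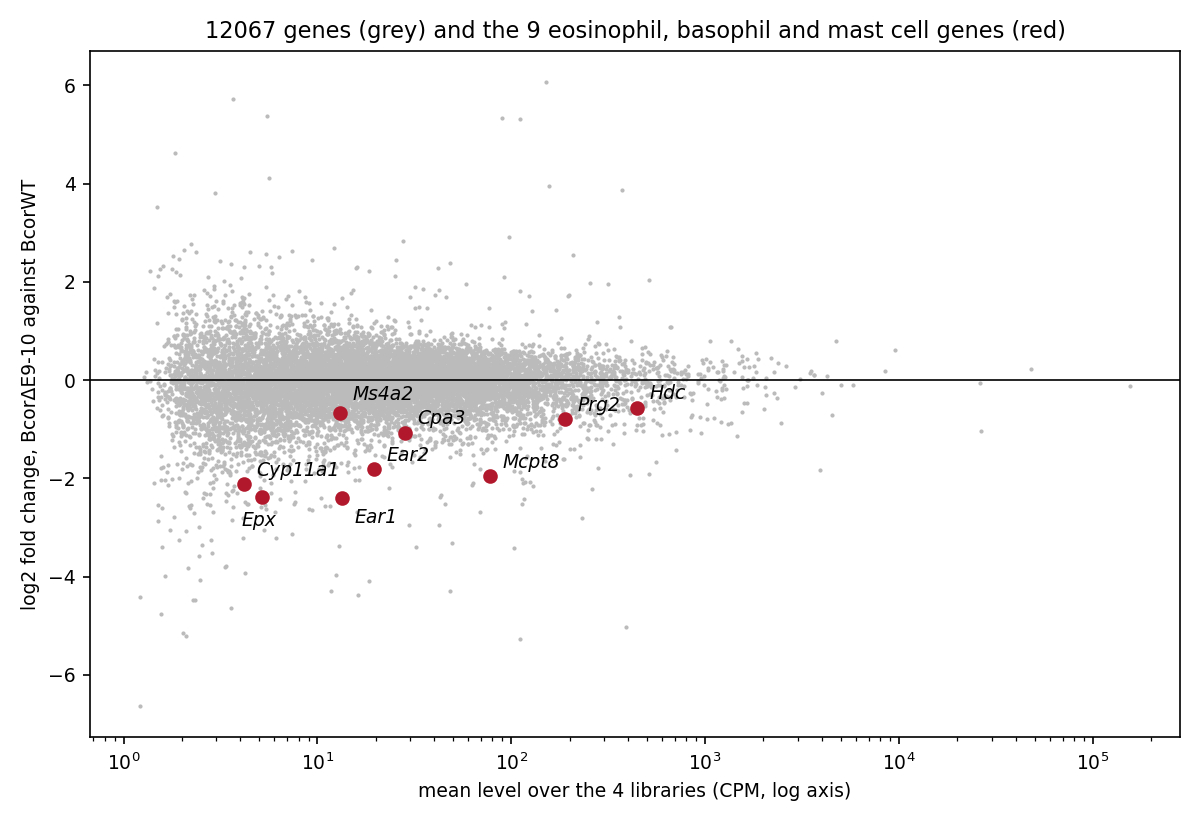
Log2 fold change of BcorΔE9-10 against BcorWT for 12067 genes (grey) against the mean level over the 4 libraries in CPM (log axis), with the 9 measured genes in red. *Epx* (5.21 CPM) and *Cyp11a1* (4.19 CPM) are at the lowest levels of the 9, where fold changes scatter widely. *Mcpt8* (-1.96) lies at a level where most genes scatter less.

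The other genes of these lineages and of the pathways around them had values in both directions. Of 10 further eosinophil genes listed, 5 were in the table, 3 lower and 2 higher, with a median log2 fold change of -0.59. *Prg3*, the homologue of major basic protein, was at 5.91 and 4.56 CPM in BcorΔE9-10 and 7.88 and 7.90 CPM in BcorWT (log2 fold change -0.59, SE 0.49). *Alox5*, the lipoxygenase that starts leukotriene synthesis, was at 30.5 and 62.6 CPM against 62.2 and 162 CPM, with overlap (-1.27, SE 0.53). *Siglecf*, a sialic acid-binding lectin of the eosinophil surface, had the opposite direction, with 8.32 and 10.9 CPM in BcorΔE9-10 and 5.55 and 3.20 CPM in BcorWT (1.16, SE 0.53). The groups of *Siglecf* did not overlap, but it did not pass the test (edgeR, adjusted p = 0.945). *Cebpe*, a transcription factor of late granulocyte maturation, had a log2 fold change of 0.09 (SE 0.39).

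Of 25 further mast cell and basophil genes, 8 were in the table, 5 lower and 3 higher, with a median of -0.31. *Prss34*, a serine protease of mouse basophils and mast cells, had 203 and 305 counts in BcorΔE9-10 and 471 and 1257 in BcorWT. Scaled, these were 37.5 and 49.7 CPM against 138 and 237 CPM. *Prss34* thus stood beside *Mcpt8*, with groups that did not overlap and a log2 fold change of -2.10 (SE 0.39), but it too missed the threshold in edgeR (adjusted p = 0.419). The granule components *Cd63* and *Srgn* (serglycin), which many myeloid cells share, had log2 fold changes of -0.27 (SE 0.38) and 0.26 (SE 0.31). The chymases and tryptases of mature mast cells on the list, among them *Cma1*, *Mcpt4*, *Tpsb2* and *Tpsab1*, were not analysed here.

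The genes of the IgE receptor, of which *Ms4a2* is a part, and of its signalling had values on both sides of the median of all genes. All 12 genes listed for IgE receptor signalling were in the table, 7 lower and 5 higher. Their median was -0.09 and their range -0.53 to 0.45. None had an unadjusted p under 0.05 in edgeR, where 4.42% of all genes did. *Fcer1g*, the γ chain that the IgE receptor shares with other Fc receptors, had a log2 fold change of 0.05 (SE 0.45). *Fcer1a*, the IgE-binding α chain, named after its values were seen, was at 4.99 and 3.26 CPM in BcorΔE9-10 and 6.72 and 3.95 CPM in BcorWT. Its groups overlapped (-0.36, SE 0.60). The kinases *Lyn*, *Syk* and *Btk* had log2 fold changes of 0.03 (SE 0.32), 0.09 (SE 0.35) and -0.11 (SE 0.37).

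Of 7 measured cytokine receptor genes of the lineages, 6 were lower and 1 higher, where 52.3% of all genes were lower. Their median was -0.24, and none had an unadjusted p under 0.05 in edgeR, where 4.42% of all genes did. *Csf2rb*, the chain shared by the receptors for IL-3, IL-5 and GM-CSF, had a log2 fold change of -0.77 (SE 0.49), with overlapping groups. *Il5ra*, which gives the eosinophil its IL-5 receptor, was not analysed here.

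All 19 listed transcription factors of the lineages were in the table, 11 lower and 8 higher, with a median of -0.02. *Id2* and *Tal1*, both of which also act in other blood lineages, were those under an unadjusted p of 0.05, and both were higher, as were 1.34% of all genes. *Id2* was at 87.0 and 118 CPM in BcorΔE9-10 and 57.8 and 56.5 CPM in BcorWT (0.84, SE 0.32). *Tal1* was at 29.6 and 21.7 CPM against 13.7 and 10.5 CPM (1.08, SE 0.38). Neither passed the adjusted threshold in edgeR (adjusted p = 0.945 for each). *Gata2*, a factor of basophil and mast cell precursors, and *Gata1*, needed for eosinophils, were named after their values were seen. They had log2 fold changes of -0.41 (SE 0.42) and -0.02 (SE 0.79) and overlapping groups.

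Of 12 measured genes for granule storage, processing and granzyme inhibition, 6 were lower and 6 higher, with a median of -0.03. Of 6 measured genes beside *Cyp11a1* and *Hdc* in steroid and histamine metabolism, 3 were lower and 3 higher. *Stard3* and *Tspo*, which bear on cholesterol at the mitochondrion, had log2 fold changes of -1.003 (SE 0.60) and -0.69 (SE 0.40). *Fdx1*, the electron carrier of the CYP11A1 reaction, had -0.11 (SE 0.45), and *Slc18a2*, the carrier that loads histamine into granules, had 0.21 (SE 0.53). Of 31 genes listed as neighbours or paralogs of the members, 6 were in the table, with a median of -0.20. *Mpo*, the neutrophil peroxidase near *Epx*, had -0.11 (SE 0.40), and *Ms4a3*, in the gene cluster of *Ms4a2*, had 0.11 (SE 0.31).

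Over these lists together, 66 of 113 genes were in the table, 40 lower and 26 higher, with a median of -0.12. Including the markers of other cells, none of 103 listed genes passed an adjusted p of 0.05 in edgeR or limma-voom, 10 passed without adjustment in edgeR and 13 in limma-voom, where 4.42% and 4.27% of all genes did. DESeq2 called 3, *Prss34*, *Car2* and *Xist*, and 11 without adjustment, against 0.356% and 4.19% of all genes. In the plot of fold changes by list the members lie lowest, which is not read as a difference since they were chosen with this contrast known.

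**Figure D4:**
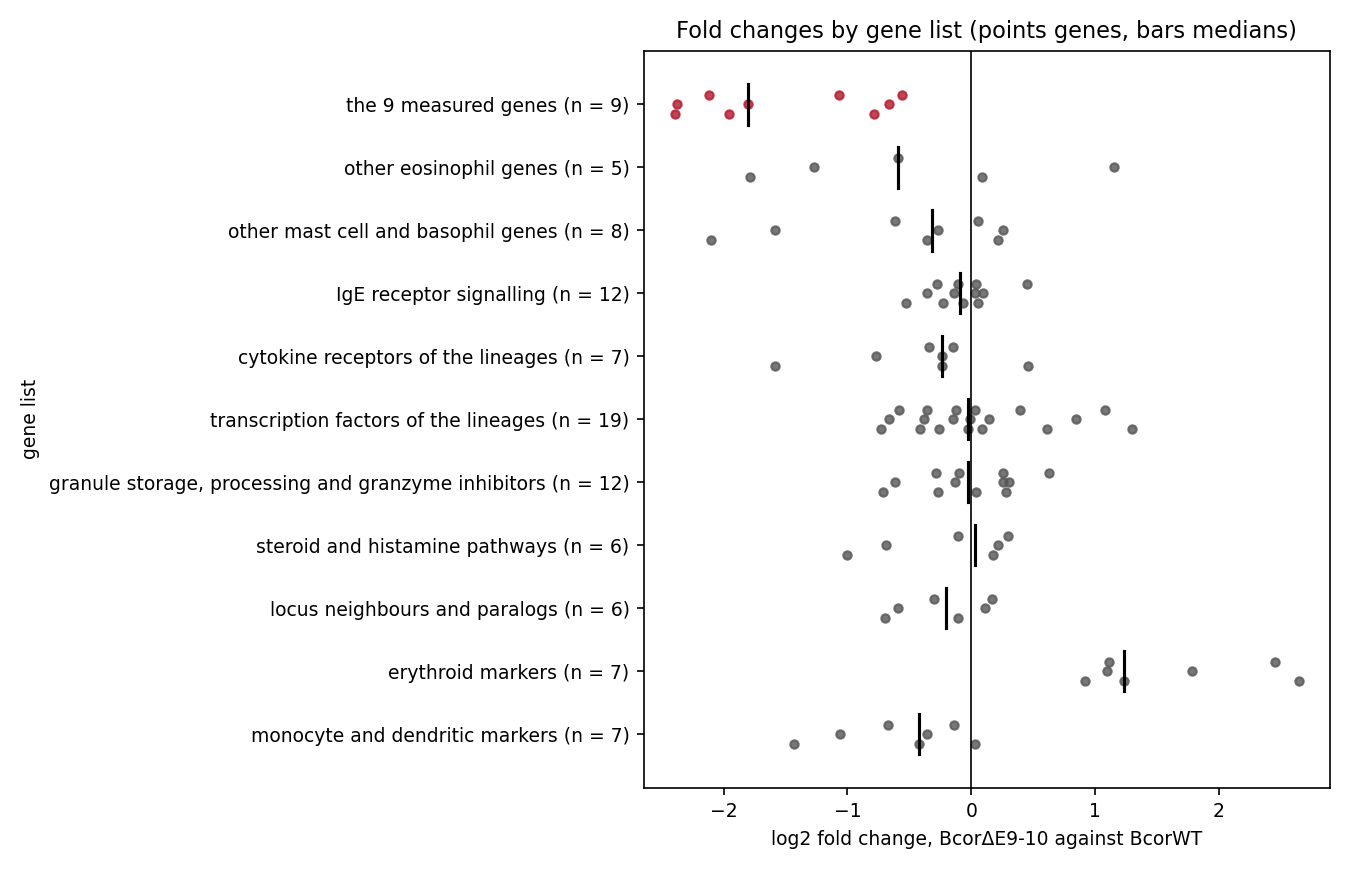
Log2 fold changes of BcorΔE9-10 against BcorWT for the 9 measured genes (red) and for lists of related genes and markers of other cells (grey points, 1 per gene; black bars, medians). The lists of signalling, transcription factor, granule storage, and steroid and histamine genes centre near 0 (medians -0.09, -0.02, -0.03 and 0.03). Medians are lower for other eosinophil genes (-0.59), monocyte and dendritic markers (-0.42) and other mast cell and basophil genes (-0.31). Cytokine receptors (-0.24) and neighbours and paralogs (-0.20) lie between, and the 7 erythroid markers are all higher.

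Markers of other cells were compared in the same libraries, and none passed an adjusted p of 0.05 in edgeR. All 7 measured erythroid markers of 9 listed were higher in both BcorΔE9-10 libraries than in either BcorWT library, as were 16.8% of all genes, with sums of 131 to 151 CPM against 40.6 to 55.3 CPM, for example *Car2*, a carbonic anhydrase (47.5 and 38.3 CPM against 11.7 and 4.33 CPM). Of the 7 measured monocyte and dendritic cell markers, 6 were lower, as were 52.3% of all genes. The sums of the 7 were 837 to 865 CPM in BcorΔE9-10 and 1078 to 1850 CPM in BcorWT. The summed level of 6 neutrophil secondary granule genes overlapped between the genotypes (63150 to 154788 CPM against 94153 to 142978 CPM). That of 5 primary granule genes was 8028 to 10565 CPM against 10761 to 10852 CPM, and that of 4 megakaryocyte genes was 108 to 141 CPM against 110 to 266 CPM. The 3 T, NK and B cell markers that were measured had overlapping sums of 134 to 259 CPM over the 4 libraries, and *Cd3e* was not analysed here. *Xist*, expressed from the inactive X of female cells, was at 2.40 and 3.91 CPM in BcorΔE9-10 and at 18.7 and 19.0 CPM in BcorWT, while the recipients were female. Of the Y-linked genes, *Ddx3y* was at 64.9 and 61.9 CPM in BcorΔE9-10 and at 58.4 and 32.2 CPM in BcorWT, without overlap (log2 fold change 0.49, SE 0.37). *Uty* (0.50), *Eif2s3y* (0.29) and *Kdm5d* (-0.31) overlapped between the genotypes, with their lowest level in BcorWT replicate 2. The part of these markers in the lower levels of the eosinophil, basophil and mast cell genes was not tested.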

How the data were processed

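KL cells of 4 transplant libraries were measured by Quant-seq. The authors removed low-quality reads, trimmed with cutadapt (version 1.7 per the labels), mapped to mm10 (GRCm38) with HISAT2 and counted reads on genes with featureCounts, so the deposited values are counts without normalization. *Gm4430* alone had values that were not whole, in BcorΔE9-10 replicate 2 and BcorWT replicate 1, so these deposited columns were considered expected counts, an untested reading, and rounded. The strand setting and the filter behind the table are not given in the sources used here.

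The main test was edgeR 4.0.16 (R 4.3.3) with filterByExpr, which removed 0 of 12067 genes, TMM scaling, a quasi-likelihood F test, a prior count of 0.125 and Benjamini-Hochberg adjustment over all genes. An SE is the log2 fold change divided by the square root of F. The fit was tested on simulated data. The members and lists were chosen with earlier results of these data known. Members, the 4 most abundant genes of each list and those with an unadjusted p under 0.05 could be named. *Fcer1a*, *Gata1*, *Gata2*, *Ly6a* and *Kdm5d* were named outside this rule. Alternatives were DESeq2's size factors, testing every gene, requiring 10 or more counts per library, a replicate block, limma-voom (limma 3.58.1), DESeq2 1.42.0, leaving out *Gm42418*, a prior count of 2 and leaving out each library.

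Gene positions were from GENCODE M21. Promoter windows matched 9 of the 10 listed genes in RefSeq's table (GRCm38.p6), *Prg2* being the other. Transcript ends were aligned with blastn 2.17.0, with alignments of at least 75 bases. Figures were drawn with matplotlib 3.10.9 from tables read with pandas 2.3.3 in Python 3.11.15.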

Additional observations from a re-analysis of the deposited data

How the results depend on the processing

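All 9 members stayed lower in BcorΔE9-10 under every alternative that tested them (6 of 6 tested with at least 10 counts in every library), and 0 of 105 recomputed fold changes reversed. That was largely fixed in advance for the 8 members whose groups did not overlap, where leaving out 1 library could hardly change the direction. Testing every gene repeated the main fit, since filterByExpr removed 0 genes. The members were also chosen with this contrast known, so the direction is not read as support. The number of genes past an adjusted p of 0.05 in the whole table was 2 in edgeR, 5 with at least 10 counts in every library, 14 with a replicate block, 4 in limma-voom and 43 in DESeq2. It ranged from 6 to 596 when a library was left out, 596 without BcorWT replicate 1, 34 without BcorΔE9-10 replicate 2, 30 without BcorWT replicate 2 and 6 without BcorΔE9-10 replicate 1, where the lone library is assumed to vary like the other genotype. The 2 genes called in edgeR were shared by all of these. Among the members, 0 were called in edgeR, 1 in DESeq2 (*Mcpt8*) and 0 to 5 with a library left out. Among the listed genes, 0 were called in edgeR, 3 in DESeq2 and 0 to 13 with a library left out, 13 without BcorWT replicate 1. The numbers of members and of listed genes under an unadjusted p of 0.05 also changed with the library left out. The cause was not tested. With the replicate block, 0 members were called, as without it. Same-numbered libraries shared only a number (correlation of their deviations across genes -0.0945). At this depth 3 counts are 0.489 to 0.876 CPM, which limits *Epx*, *Ear1* and *Cyp11a1* most.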
